A study of Rattus norvegicus with 12 samples.

Results

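The comparison described here is that of the injured spinal cord of athymic nude (AN) rats with that of Sprague-Dawley (SD) rats at 8 weeks after contusion, the chronic phase of recovery. It covers the genes for which the chronic-phase table gave status OK and an FPKM above 0 in both strains, which were 11952 of the 17423 genes listed. FPKM is the number of fragments counted per length of exon and scaled for the size of the library, here under quartile normalization. The ratio used throughout is the AN over the SD FPKM on the log2 scale, so that 1 is a 2-fold higher and -1 a 2-fold lower level in AN rats. SD rats were of the stock Hsd:SD and AN rats of the stock Hsd:RH-rnu/rnu, which lacks a working thymus. All were females aged 16 to 18 weeks at injury. All received a contusion of the thoracic cord at 200 kdyn and were perfused with PBS before a 1-mm segment of the lesion was frozen for polyadenylated RNA. The AN group at 8 weeks and the SD group at 8 weeks held 3 rats each, and the other 6 of the 12 sequenced rats were killed at 1 week.

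The deposited table holds 1 pooled FPKM for each group of 3 rats. The spread between rats cannot be computed from these values, and the authors' own test columns were not used here, so each difference below is given without a test. The reads behind each gene are unknown. The strains differ in genetic background as well as in the thymus, and these cannot be told apart.

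After a contusion the cord loses neurons and oligodendrocytes at the lesion, while microglia and blood-borne macrophages clear debris, astrocytes and fibroblast-like cells build a scar, and Schwann cells move in from the roots and myelinate spared axons. T cells mature in the thymus. They enter the lesion days after injury, release interferon and other cytokines, and recognise peptides held on MHC molecules of other cells. Athymic rats keep macrophages, B cells and natural killer (NK) cells.

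Most genes had nearly the same level in both strains. The median log2 ratio was 0.0017 and the median size of the ratio, ignoring its sign, was 0.19. In all 10801 genes (90.4%) lay within 2-fold. At least 2-fold higher in AN rats were 294 genes, or 2.46%, and at least 2-fold lower were 857 genes, or 7.17%. The excess on the lower side held for larger differences. At least 4-fold higher were 55 genes against 309 lower, and at least 8-fold higher were 25 genes against 69 lower. Lower levels in AN rats were most frequent among weakly expressed genes. The share at least 2-fold lower was 31.2% of the 762 genes with a mean FPKM of the 2 groups below 1, where the share higher was 8.92%. It was 4.78% of the 4000 genes with a mean FPKM from 5 to 20 and 0.996% of the 1004 genes from 100 upward, where 1.59% were at least 2-fold higher.

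**Figure D1:**
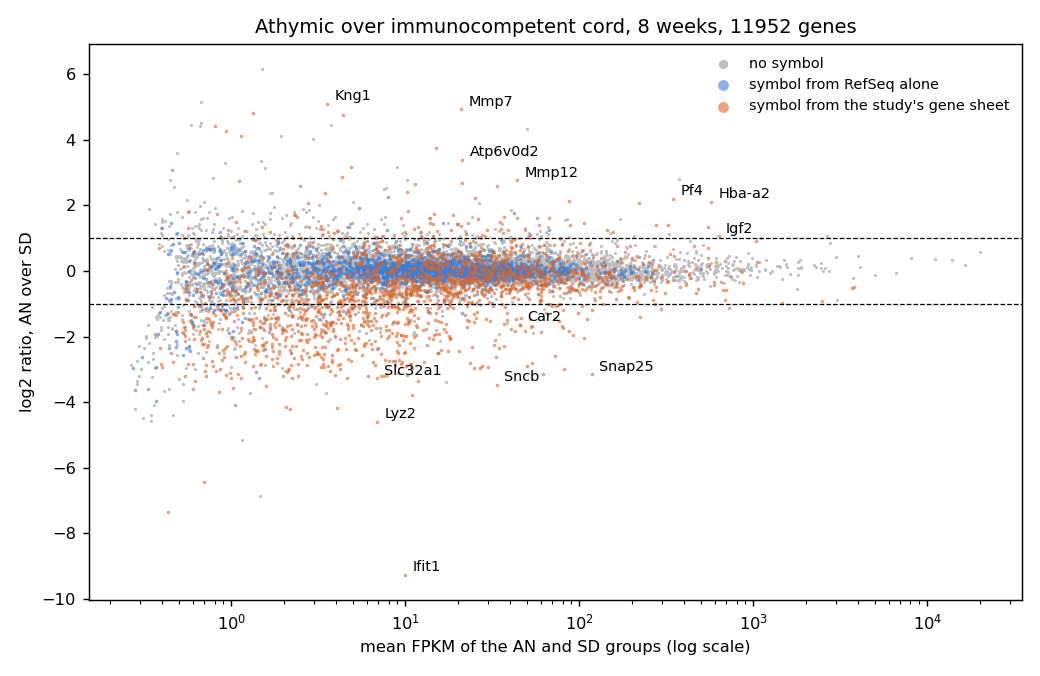
Log2 ratio of AN over SD FPKM at 8 weeks (vertical axis) against the mean FPKM of both groups (horizontal axis, log scale), with 1 point for each of the 11952 genes, coloured by where its symbol came from; dashed lines mark 2-fold. Most points lie between the lines, the 857 genes below the lower line are spread over weakly and moderately expressed genes, and the symbols of the study's sheet (orange) hold most of the named genes below it.

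The table lists genes by Rat Genome Database (RGD) identifier without symbols, and 4083 of the 11952 genes (34.2%) could be named. RefSeq alone named 2163 of them and the study's own gene sheet alone named 1585, with 335 named by both. The sheet at hand holds genes that the study had selected for a strain difference at 1 week, so the genes it names are not a fair sample. Of the 1920 genes it names, 30.2% were at least 2-fold lower and 4.95% at least 2-fold higher in AN rats at 8 weeks. Of the 2498 genes that RefSeq names, 6.24% were at least 2-fold lower and 0.961% higher. These 2498 include the 335 that the sheet names too, so their shares are not free of its selection. Of the 7869 genes without a symbol, 2.82% were at least 2-fold lower and 2.35% higher. Most gene groups below are mainly named by the sheet, other than the HOX genes, where RefSeq names 4 of 7. RefSeq names 15 of the 31 genes of motile cilia, but the sheet names some of these 15 too. The counts of the groups from the sheet are therefore set against 30.2% and 4.95%, and they are not independent evidence of a direction, since the sheet was chosen on other rats of the same strains.

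**Figure D2:**
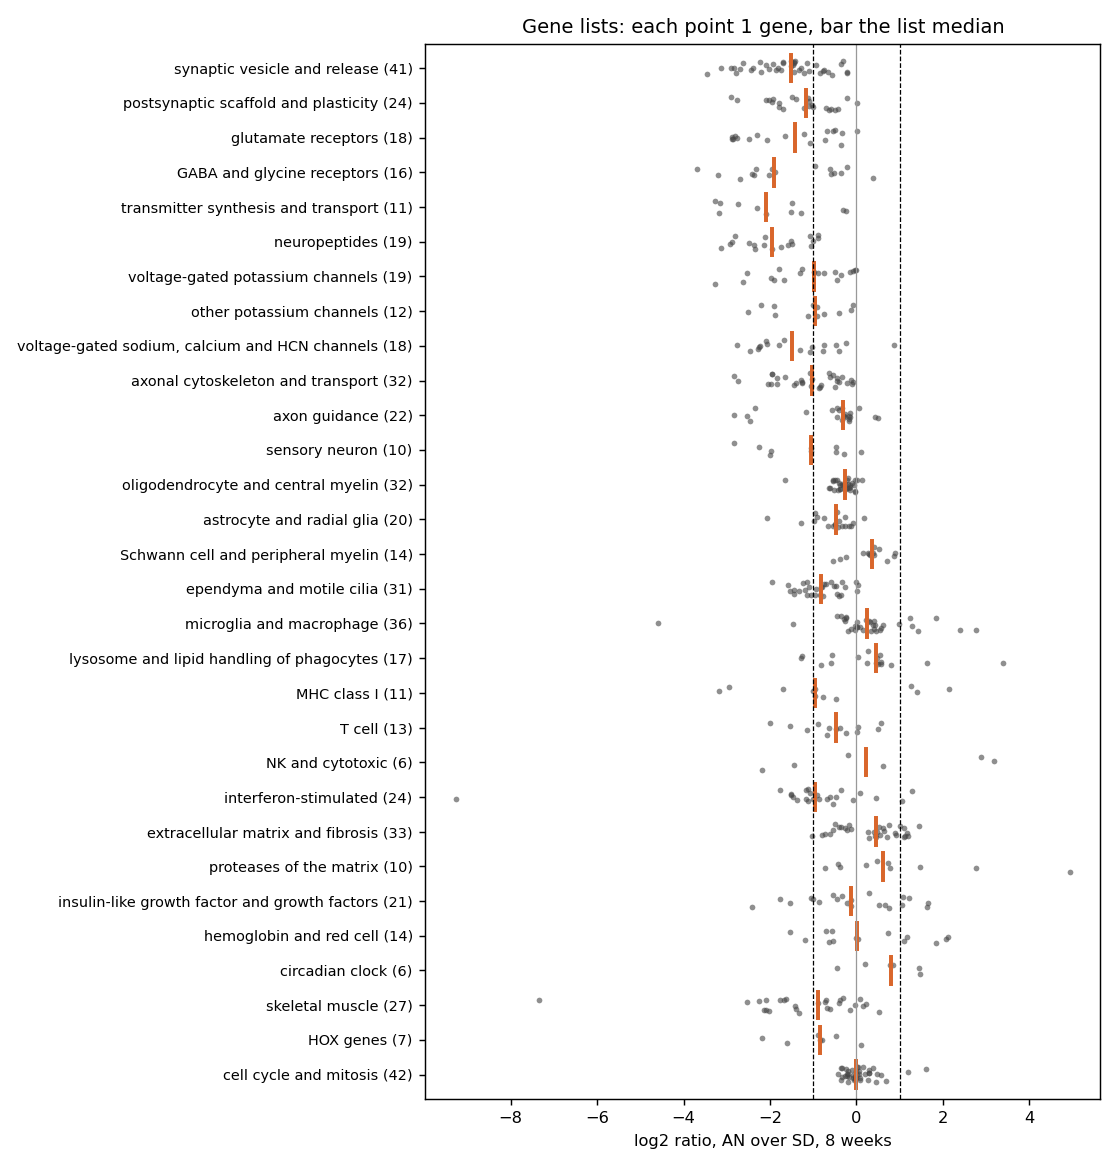
Log2 ratio of AN over SD FPKM at 8 weeks (horizontal axis) for 30 gene groups (rows, with the number of named genes); each point is 1 gene, the orange bar is the median of the group and the dashed lines mark 2-fold. The neuronal groups at the top have medians from -2.10 to -0.31, the Schwann cell, macrophage, matrix and protease groups have medians above 0, and the cell cycle group is centred near 0.

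Genes of the synapse were the largest block at a lower level in AN rats. Of 41 named genes of synaptic vesicles and their release, 31 (75.6%) were at least 2-fold lower, none was 2-fold higher, and the median log2 ratio was -1.51. Snap25, a SNARE protein that drives vesicle fusion, had 213 FPKM in SD rats and 24.1 FPKM in AN rats, a log2 ratio of -3.14. Sncb (beta-synuclein) had 61.2 and 5.56 FPKM, the lowest ratio of the group at -3.46. The synaptic vesicle protein Svop had 5.99 and 0.795 FPKM, and Unc13c, which primes vesicles for release, had 5.86 and 0.822 FPKM. Closer to equal was Vamp2, the general vesicle SNARE, which had 138 FPKM in SD and 118 FPKM in AN rats.

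On the receiving side of the synapse 17 of 24 genes of the postsynaptic scaffold were at least 2-fold lower and none was higher, with a median of -1.16. Camk2a, the kinase of synaptic plasticity, had 17.7 FPKM in SD and 2.38 FPKM in AN rats. Nrgn, a calmodulin-binding protein of dendrites, had 16.6 and 2.43 FPKM. Among 18 glutamate receptor genes 11 were at least 2-fold lower, at a median of -1.43. Grin1, the subunit that every NMDA receptor needs, had 18.9 FPKM in SD and 2.68 FPKM in AN rats. The metabotropic receptor Grm4 had a log2 ratio of -2.88, while the kainate receptor subunits were nearly equal. Grik2 had 6.14 FPKM in SD and 6.15 FPKM in AN rats, and Grik5 had 21.1 and 16.7 FPKM. The glutamate receptor genes of low level carried most of this difference, since the median over the 8 genes with a mean FPKM of at least 5 was -0.53.

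Receptors for the inhibitory transmitters GABA and glycine split by subunit. Of 16 genes 9 were at least 2-fold lower and the median was -1.92. Gabra5, a GABA-A receptor subunit, had 4.36 FPKM in SD and 0.473 FPKM in AN rats. The subunits of highest level differed less. Gabbr1 of the GABA-B receptor had 109 and 72.8 FPKM, and Glrb, the glycine receptor beta subunit, had 38.4 and 29.9 FPKM. None of the 5 genes with a mean FPKM of at least 5 in this group was 2-fold lower, and their median was -0.51.

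The genes that mark a neuron's transmitter were lower for all 3 main transmitters of the cord. Of 11 genes of transmitter synthesis and transport 9 were at least 2-fold lower, at a median of -2.10. Among the 9 is the astrocytic GABA transporter Slc6a11, which is also counted with the astrocyte genes. Slc17a6 loads vesicles with glutamate and had 11.0 FPKM in SD and 1.20 FPKM in AN rats, a 9.12-fold difference. Slc32a1 loads GABA and glycine and had 12.5 and 1.29 FPKM, a 9.69-fold difference. Slc6a5, the glycine transporter of glycinergic neurons, had 7.11 and 0.798 FPKM. Excitatory and inhibitory markers thus lay at similar ratios. Gad1 and Gad2, which make GABA, had log2 ratios of -2.75 and -2.10. The cholinergic genes of motor neurons differed less, with 5.22 FPKM in SD and 1.82 FPKM in AN rats for the vesicular transporter Slc18a3 and 3.97 and 1.42 FPKM for the choline transporter Slc5a7.

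Of 19 neuropeptide genes and genes of peptide processing, 17 were at least 2-fold lower in AN rats and the median was -1.96. Sst (somatostatin), a peptide of dorsal horn interneurons, had 111 FPKM in SD and 12.7 FPKM in AN rats, a log2 ratio of -3.13. Nts (neurotensin) had 11.7 and 1.60 FPKM, Vip 3.22 and 0.456 FPKM. Chgb, which packs peptides into dense-core granules, had 53.0 and 6.94 FPKM. The granule proteins of highest level were among the least different of the group. Resp18 had 363 FPKM in SD and 181 FPKM in AN rats, and Pcsk1n, an inhibitor of prohormone cleavage, had 345 and 185 FPKM.

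Ion channels followed the same direction. Of 19 voltage-gated potassium channel genes 9 were at least 2-fold lower (median -0.98), of 12 other potassium channel genes 6 (median -0.97), and of 18 voltage-gated sodium, calcium and HCN channel genes 12 (median -1.50). None was 2-fold higher in AN rats. Kcnc1, the fast-spiking channel Kv3.1, had 8.32 FPKM in SD and 0.864 FPKM in AN rats. The channels beside the nodes of myelinated axons were nearly equal, with 19.3 and 18.1 FPKM for Kcna1 and 34.3 and 33.7 FPKM for Cntn2, the adhesion protein that holds them in place. Scn1a, a sodium channel of fast-spiking neurons, had 6.56 and 0.964 FPKM. In contrast Scn7a, an atypical sodium channel also found in Schwann cells, was higher in AN rats at 28.7 FPKM in SD and 52.7 FPKM in AN rats.

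The axonal cytoskeleton differed less than the synapse. Of 32 genes 17 were at least 2-fold lower and the median was -1.04. Ina (alpha-internexin), a neuronal intermediate filament, had 14.7 FPKM in SD and 2.19 FPKM in AN rats, and Nefl, the light neurofilament, had 170.4 and 41.4 FPKM. Uchl1, an abundant neuronal ubiquitin hydrolase, had 322 and 122 FPKM. At the other end the ankyrins Ank2 (53.7 and 49.4 FPKM) and Ank3 (13.3 and 12.6 FPKM) and the kinesin Kif1a (79.0 and 73.9 FPKM) were nearly equal. Of 22 axon guidance genes only 5 were at least 2-fold lower, close to the share among sheet-named genes, and the median was -0.31. Those 5 were the ephrin Efna3, the repellent Slit1, the netrin receptor Unc5a, the Nogo receptor partner Lingo1 and, named after its value was seen, the Eph receptor Epha10. Lingo1, which restrains axon growth and myelination, had 18.7 FPKM in SD and 3.65 FPKM in AN rats.

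Genes of sensory neurons were lower in AN rats. In this group 6 of 10 genes were at least 2-fold lower, none was higher and the median was -1.06, or -0.28 over the 3 genes with a mean FPKM of at least 5. Among those lower were the dorsal horn transcription factors Drgx (2.61 FPKM in SD and 0.364 FPKM in AN rats) and Tlx3 (1.59 and 0.400 FPKM). Ret and Gfra2, receptor parts for the GDNF family, had log2 ratios of -0.28 and 0.09.

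Taken over the neuronal markers fixed for the check of cell types, 10 of the 13 could be named and all 10 were at least 2-fold lower in AN rats, with a summed level of 735.5 FPKM in SD and 171.8 FPKM in AN rats. In bulk tissue, fewer cells of a type and less RNA per cell cannot be told apart. Skeletal muscle markers moved with them. All 8 named muscle markers were at least 2-fold lower, with a summed level of 38.83 FPKM in SD and 9.386 FPKM in AN rats. The part of muscle in the neuronal result was not tested. At least 2-fold lower were 30.2% of sheet-named genes and 7.17% of all genes. The sheet, selected on the 1-week difference, names markers such as Snap25, Gad1, Tnnc2 and Tnni2. Both marker counts are therefore not independent evidence of a direction.

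By the same check the markers of other cell types of the cord differed less, apart from the ependyma. Ependymal markers summed to 29.83 FPKM in SD and 14.79 FPKM in AN rats over 5 genes, of which 3 were at least 2-fold lower. Oligodendrocyte markers summed to 2097 FPKM in SD and 1816 FPKM in AN rats over 8 genes, astrocyte markers to 6487 and 4226 FPKM over 3 genes, Schwann cell markers to 1601 and 1860 FPKM over 5 genes, and macrophage markers to 725 and 882.1 FPKM over 6 genes. The named markers of cord tissue were thus present in both groups. No marker fixed for B cells, mast cells, fibroblasts or endothelium could be named.

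Oligodendrocyte genes lay close together. Of 32 genes 1 was at least 2-fold lower and none higher, against 30.2% lower among sheet-named genes, and the median was -0.26. Mag, a myelin adhesion protein, had 402 FPKM in SD and 404 FPKM in AN rats, and Cnp, an enzyme of myelin, had 774 and 702 FPKM. The exception was Car2 (carbonic anhydrase 2), an enzyme of oligodendrocytes and other cells, with 69.3 FPKM in SD and 22.2 FPKM in AN rats.

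Of 20 astrocyte genes 2 (10%) were at least 2-fold lower, against 30.2% of sheet-named genes, and the median was -0.47, the same as for those. The most abundant, S100b, had 4461 FPKM in SD and 3159 FPKM in AN rats, Clu (clusterin) 4349 and 3007 FPKM, and Mt3, a brain metallothionein, 3260 and 1718 FPKM. Fabp7, a fatty acid binding protein of immature astrocytes and radial glia, had a log2 ratio of -0.97. The 2 genes past 2-fold were Gpc5, a glypican, and Slc6a11, an astrocytic GABA transporter, at -2.06 and -1.29.

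Schwann cell genes lay on the other side. Of 14 genes 11 had a ratio above 0, none was past 2-fold, and the median was 0.35. Pou3f1, a transcription factor of promyelinating Schwann cells, had 4.95 FPKM in SD and 9.10 FPKM in AN rats, and the adhesion protein Cdh19 had 8.78 and 14.3 FPKM. Pmp2, a lipid-binding protein of peripheral myelin, went the other way at 45.4 and 31.4 FPKM.

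Genes of motile cilia, which in the cord belong to the ependymal cells that line the central canal, were lower in AN rats. Of 31 genes 12 (38.7%) were at least 2-fold lower, none was higher, and the median was -0.82. RefSeq named 15 of these, of which 5 were at least 2-fold lower at a median of -0.80. At least 2-fold lower were 6.24% of all genes that RefSeq names and 30.2% of sheet-named genes. The 15 include genes that the sheet names too, among them Drc12 at -1.95 and Ccdc113 at -1.45. They are therefore not free of the sheet's selection. Dynlrb2, a dynein light chain, had 20.2 FPKM in SD and 6.77 FPKM in AN rats, and Rsph4a, of the ciliary radial spoke, had 2.18 and 0.755 FPKM. Tppp3, the most abundant gene of the group, had 309.6 and 206 FPKM.

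Macrophage genes as a group were close to equal, with a few at a much higher level in AN rats. Of 36 genes of microglia and macrophages 6 were at least 2-fold higher and 2 lower, and the median was 0.25. Fcer1g, a shared signalling chain of Fc receptors and the most abundant of the group, had 853 FPKM in SD and 854 FPKM in AN rats. The complement gene C1qc had 553 and 671 FPKM. Against this, Cd5l, a secreted protein of tissue macrophages, had 3.24 FPKM in SD and 17.2 FPKM in AN rats, a 5.29-fold difference. Cd163, the receptor that takes up haemoglobin bound to haptoglobin, had 4.52 and 16.2 FPKM, and the Fc receptor-like gene Fcrl2 had 176 and 468 FPKM. The genes lower in AN rats were Trem1, a receptor that amplifies inflammation, at 2.30 and 0.832 FPKM, and the lysozyme gene listed as Lyz2 (RGD:1593616) at 13.2 and 0.546 FPKM. Rats carry near-identical lysozyme genes, between which the counting could split reads, so that last value is uncertain.

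Genes of lysosomes and lipid handling added the largest single ratio among phagocyte genes. Atp6v0d2, a subunit of the proton pump of lysosomes and osteoclasts, had 3.69 FPKM in SD and 38.9 FPKM in AN rats, a 10.6-fold difference. Fabp4, a lipid carrier of macrophages and fat cells, had 27.9 and 86.0 FPKM. Of 17 genes 2 were at least 2-fold higher, 2 lower and 12 above 0 in all, with a median of 0.45. Among the 15 named genes with the highest ratios at a mean FPKM of at least 2 were also Oscar, an immune receptor of osteoclasts and macrophages (1.12 and 5.80 FPKM), and Tm4sf19, a tetraspan protein (2.78 and 13.2 FPKM).

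The matrix metalloproteinases Mmp7 (matrilysin) and Mmp12 (macrophage elastase), which cut matrix proteins, were among the named genes with the 15 highest ratios at a mean FPKM of at least 2. Mmp7 had 1.33 FPKM in SD and 40.6 FPKM in AN rats, a 30.6-fold difference. Mmp12 had 11.3 and 76.5 FPKM, a 6.78-fold difference. Both lie in the metalloproteinase cluster of chromosome 8, at chr8:4526018-4533730 and chr8:4249938-4259675 in the RN4 build of the files. The 250 bases before each RefSeq start are shown because they hold the AP-1 motif TGANTCA in nearly the same place. RefSeq places them at chr8:13132793-13133042 (plus strand) for Mmp7 and chr8:12866402-12866651 (plus strand) for Mmp12 in the GRCr8 build, and they are given 5′ to 3′ with motifs in capitals.
Mmp7: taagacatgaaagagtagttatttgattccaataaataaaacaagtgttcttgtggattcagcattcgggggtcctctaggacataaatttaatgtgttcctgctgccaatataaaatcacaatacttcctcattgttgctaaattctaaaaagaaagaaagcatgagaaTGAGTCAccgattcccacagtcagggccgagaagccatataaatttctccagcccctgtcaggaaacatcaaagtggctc
Mmp12: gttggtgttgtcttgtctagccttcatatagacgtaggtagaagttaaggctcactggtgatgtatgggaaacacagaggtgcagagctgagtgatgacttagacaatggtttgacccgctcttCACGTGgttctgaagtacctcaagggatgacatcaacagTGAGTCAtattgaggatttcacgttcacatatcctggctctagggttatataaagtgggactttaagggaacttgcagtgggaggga
The AP-1 letters begin 80 bases before the start in Mmp7 and 87 bases before it in Mmp12, where the other capitals mark the E-box CACGTG. Searched on both strands, TGANTCA is in 6.34% of the 33469 promoters of the table, in 4.67% of the 3168 promoters of named genes, in 6 of the 69 promoters of named genes at least 2-fold higher in AN rats (8.7%) and in 27 of the 461 at least 2-fold lower (5.86%). CACGTG is in 5.59% of all promoters.

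Of all 10 matrix protease genes 3 were at least 2-fold higher and none was lower, with a median of 0.60. The third was Adam8, a membrane protease of myeloid cells, at 2.61 FPKM in SD and 7.24 FPKM in AN rats.

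Extracellular matrix genes leaned to the AN side. Of 33 genes 7 (21.2%) were at least 2-fold higher, against 4.95% of sheet-named genes, 1 was lower and 21 were above 0, with a median of 0.45. Ltbp2, a binding protein of elastic fibres, had 7.37 FPKM in SD and 20.2 FPKM in AN rats. Postn (periostin), a matricellular protein of scars, had 7.53 and 17.2 FPKM. Pcolce, which promotes the cleavage of procollagen, had 95.6 and 216 FPKM. The most abundant gene of the group, Mgp (matrix Gla protein), an inhibitor of calcification, had 715 and 1354 FPKM and stayed just within 2-fold. Lower in AN rats were the cartilage-type collagens Col9a2 and Col2a1, at log2 ratios of -1.02 and -0.79.

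Growth factor genes went both ways, with 5 of 21 at least 2-fold higher and 4 lower. Gdf15, a stress-induced factor of the TGF-beta family, had 21.4 FPKM in SD and 65.7 FPKM in AN rats. Igf2 (insulin-like growth factor 2), which the meninges make, had 409 and 852 FPKM, and its binding protein gene Igfbp4 had 17.9 and 55.8 FPKM. Among the genes lower in AN rats, Fgf9 had 2.56 FPKM in SD and 0.479 FPKM in AN rats, and the neuregulin Nrg3 had a log2 ratio of -1.78. Another was the neuregulin Nrg1, named after its value was seen. Cntf, a survival factor made by glia, was just within 2-fold at 87.9 and 44.1 FPKM.

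Interferon-stimulated genes were lower in AN rats. Of 24 genes 11 (45.8%) were at least 2-fold lower and 2 higher, with a median of -0.96. The 6 genes of this group that RefSeq names had a median of -0.31, and none of them was past 2-fold, so the size of the group's difference depends on the sheet. Ifit1, an RNA-binding antiviral protein, had the lowest ratio of all 11952 genes. It had 19.9 FPKM in SD and 0.0325 FPKM in AN rats at 8 weeks, and 20.8 and 0.152 FPKM at 1 week. Its locus is chr1:238609171-238611236 in RN4. Its relative Ifit3, named after its values were seen, was expressed in both strains and had 23.7 FPKM in SD and 10.8 FPKM in AN rats. Irf7, the factor that amplifies the interferon response, had 62.2 and 18.3 FPKM. The antiviral GTPase Mx1 had a log2 ratio of -1.50, and the most abundant gene, Ifi27, had 989.6 and 454 FPKM. Plscr1, a scramblase, and Mnda, a nuclear protein of myeloid cells, went the other way at 1.29 and 1.06.

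The promoters of Ifit3 and Irf7 are shown because they hold the core of the interferon-stimulated response element, GAAANNGAA, which interferon-activated factors bind. RefSeq places their 250 bases at chr1:241527076-241527325 (plus strand) and chr1:205800024-205800273 (minus strand) in GRCr8, and capitals again mark motifs, here read on the opposite strand.
Ifit3: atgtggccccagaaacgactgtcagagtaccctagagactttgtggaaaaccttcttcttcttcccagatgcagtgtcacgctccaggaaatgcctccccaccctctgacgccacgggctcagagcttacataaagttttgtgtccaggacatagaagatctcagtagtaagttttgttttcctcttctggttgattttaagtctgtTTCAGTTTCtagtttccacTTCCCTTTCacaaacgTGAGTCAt
Irf7: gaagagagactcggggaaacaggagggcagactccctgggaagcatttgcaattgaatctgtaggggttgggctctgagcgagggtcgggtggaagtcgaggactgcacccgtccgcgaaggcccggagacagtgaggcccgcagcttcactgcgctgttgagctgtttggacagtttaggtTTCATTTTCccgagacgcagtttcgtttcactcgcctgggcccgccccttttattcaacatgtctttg
In Ifit3 the core begins 43 and 24 bases before the start and an AP-1 match stands 8 bases before it, and in Irf7 the core begins 68 bases before the start. Among the 17 promoters of interferon-stimulated genes listed there 10 (58.8%) hold the core, against 8.12% of all promoters. It is in 33 of the 461 promoters of named genes at least 2-fold lower in AN rats (7.16%) and in 1 of the 69 at least 2-fold higher (1.45%).

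Of 13 T cell genes 3 were at least 2-fold lower in AN rats and none higher, less than the 30.2% of sheet-named genes, with a median of -0.47. Cd3g, the only chain of the T cell receptor complex that could be named, had 2.58 FPKM in SD and 1.40 FPKM in AN rats, a log2 ratio of -0.88. At 1 week its levels were 2.74 and 0.531 FPKM and its ratio -2.37. The 3 genes past 2-fold, named after their values were seen, all lay below 1 FPKM, namely the transcription factor Bcl11b, which some neurons also make, at 0.870 and 0.219 FPKM, the signalling adaptor Sh2d1a, and the inhibitory receptor Pdcd1 (PD-1) at 0.938 and 0.421 FPKM. Cd4, which rat macrophages also carry, had 94.0 and 79.0 FPKM and Cd8a 29.5 and 22.8 FPKM.

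Genes of the Ly49 family of NK receptors and of the MHC went in both directions within a family. Of the 2 genes listed as Ly49si2, RGD:1359240 had 0.964 FPKM in SD and 8.73 FPKM in AN rats, and RGD:1359669 had 1.04 and 7.63 FPKM. Ly49i7 went the other way at 4.47 and 0.988 FPKM. Of 11 genes of the MHC class I group, which holds the immunoproteasome subunit Psmb8 beside RT1 genes, 3 were at least 2-fold higher and 3 lower in AN rats. RT1-CE11 had 32.2 FPKM in SD and 142 FPKM in AN rats, whereas RT1-T24-3 had 19.3 and 2.51 FPKM. The name RT1-A2 stands at 4 identifiers, whose log2 ratios were -3.17 for RGD:3472, -0.78 for RGD:1595923, 1.25 for RGD:1359610 and 1.39 for RGD:1595924. The Ly49 and RT1 genes are near-identical copies that differ between rat strains, so the value of a single member is uncertain. Of 5 genes of MHC class II and antigen presentation 1 was at least 2-fold higher and 1 lower. RT1-Db2, a class II gene, had 1.37 FPKM in SD and 0.0159 FPKM in AN rats, a log2 ratio of -6.43, and is subject to the same uncertainty. Flt3, a receptor of dendritic cell precursors, had 3.22 and 1.84 FPKM. The class II chaperone Cd74 was nearly equal at 268 and 260.1 FPKM, and Itgax, the integrin CD11c of dendritic cells, was higher in AN rats at 4.65 and 11.0 FPKM.

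Of the 8 chemokine and cytokine genes that could be named 1 was at least 2-fold higher and 1 lower. Pf4 (platelet factor 4), a chemokine of platelets and some macrophages, had 124 FPKM in SD and 569 FPKM in AN rats. Cxcl13, which draws B cells, had 12.6 and 3.59 FPKM, and Cd22, a receptor of B cells, had 6.25 and 1.59 FPKM. The other two named genes of the B and plasma cell group had a higher level in AN rats, with 42.5 and 60.0 FPKM for the cytokine Tnfsf13 and 0.565 and 1.35 FPKM for the Fc receptor-like gene Fcrla. Il33, an alarm signal released by injured glia, was equal at 57.5 and 57.8 FPKM. The 2 C4b genes of complement had 144 and 121 FPKM in SD and 247 and 207 FPKM in AN rats, and as near-identical copies they are uncertain singly.

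**Figure D3:**
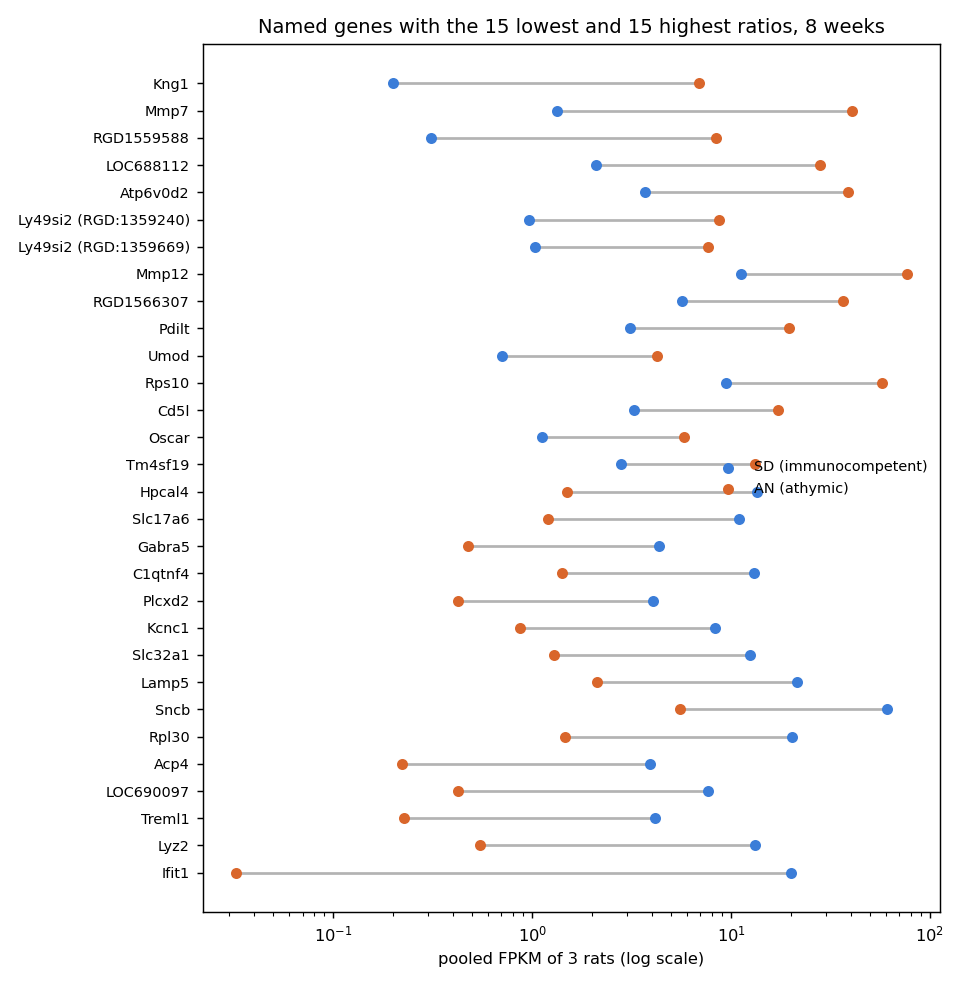
Pooled FPKM of SD rats (blue) and AN rats (orange) at 8 weeks on a log scale for the named genes with the 15 lowest and the 15 highest ratios among those with a mean FPKM of at least 2; a line joins the values of 1 gene. The separation runs from 4.73-fold for Tm4sf19 on the higher side and 9.09-fold for Hpcal4 on the lower side to 34.3-fold for Kng1 and a nearly absent Ifit1 in AN rats.

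Haemoglobin was higher in AN rats at 8 weeks, although all rats were perfused. Hba-a2, an alpha globin, had 215 FPKM in SD and 934 FPKM in AN rats. LOC360504, at the same cluster on chromosome 10, had 84.7 and 353 FPKM. Of 14 genes of the red cell group 5 were at least 2-fold higher and 2 lower. Among those lower was Dmtn, which encodes a part of the red cell skeleton and had a log2 ratio of -1.54. The summed level of 3 red cell markers was 268.6 FPKM in SD and 1039 FPKM in AN rats.

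Most genes of the circadian clock that could be named had a higher level in AN rats. Dbp had 56.0 FPKM in SD and 155 FPKM in AN rats, Per3 10.8 and 29.4 FPKM, Ciart 11.9 and 21.1 FPKM and Tef 37.4 and 64.2 FPKM. Of 6 clock genes 2 were at least 2-fold higher and none was lower, with a median of 0.81. At 1 week Dbp, Per3, Ciart and Tef lay on the other side, at -1.35 for Dbp and -1.12 for Per3. The sheet names all 6 and was selected on the 1-week difference. Rorb, a nuclear receptor of the group, was below 0 at both times, at -1.18 and -0.45. These genes follow the time of day. The hour of tissue collection is not given in the sources used here.

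Muscle genes were lower in AN rats and mostly low in level. Of 27 genes 13 (48.1%) were at least 2-fold lower and none was higher, at a median of -0.89. Tnnc2, a troponin of fast muscle, had 15.2 FPKM in SD and 3.21 FPKM in AN rats, and Tnni2 had 5.46 and 0.948 FPKM. Pvalb (parvalbumin), which fast muscle and inhibitory neurons both make, had 23.2 and 5.47 FPKM. The 4 muscle genes that RefSeq names had a median of 0.15, above 0.

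HOX genes, which keep the position of a cell along the body axis, were lower or nearly equal. Of 7 genes 2 were at least 2-fold lower, namely Hoxb9 at 8.27 FPKM in SD and 1.82 FPKM in AN rats and Hoxb8 at 55.2 and 18.1 FPKM. The 4 that RefSeq names had none past 2-fold and a median of -0.81.

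Cell cycle genes were nearly equal at 8 weeks. Of 42 cell cycle genes 2 were at least 2-fold higher, none was lower and the median was -0.01. The higher ones were the mitotic kinase Aurkb, at 4.65 FPKM in SD and 14.2 FPKM in AN rats, and the kinesin Kif15. Among 8 cell death genes 3 were at least 2-fold higher, namely Gdf15 (given above), the inhibitor of apoptosis Birc2 at 22.4 and 50.4 FPKM and Nlrp1a, a sensor of the inflammasome, at 2.91 and 5.84 FPKM. Of 12 genes of lipid synthesis 3 were at least 2-fold lower, namely Thrsp, a regulator of fatty acid synthesis (81.5 and 25.7 FPKM), and the fatty acid elongases Elovl4 and Elovl2. Of 20 stress and detoxification genes 2 were at least 2-fold higher, namely Gpx3, the secreted glutathione peroxidase (312 and 785 FPKM), and Xdh, xanthine dehydrogenase, at a log2 ratio of 1.20.

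Several strongly different genes fell in none of these groups. Kng1, which encodes kininogen, had 0.201 FPKM in SD and 6.88 FPKM in AN rats, and its unnamed neighbour on chromosome 11, RGD:2980, had 0.328 and 7.11 FPKM. Rats carry near-identical kininogen genes, so how reads split between them is uncertain. Umod and Pdilt, which lie side by side on chromosome 1, had 0.703 and 3.10 FPKM in SD and 4.27 and 19.6 FPKM in AN rats. Umod is uromodulin, a protein of the kidney. The unnamed gene RGD:1311996, at chr5:59238897-59240001, had 4.74 FPKM in SD and 94.9 FPKM in AN rats. A pair of ribosomal protein names stood at opposite ends, with Rps10 at 9.46 and 57.4 FPKM and Rpl30 at 20.3 and 1.47 FPKM, and both have many processed copies in the genome, so their values are uncertain.

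Some of these genes are neighbours. In 3 places at least 4 genes in a row with a ratio were past 2-fold on the same side. On chromosome 8, from 4249938 to 4667733, 5 genes were higher in AN rats, namely Mmp12, RGD:631408, Mmp7, Tmem123 and Birc2, with log2 ratios from 1.17 to 4.93. On chromosome 12, from 20034583 to 20572770, 4 genes were higher, each at most 0.124 FPKM in SD rats and between 0.812 and 2.58 FPKM in AN rats. The name LOC681196 stands at 2 identifiers among them, RGD:1595143 and RGD:1561730. With a shared name and very low SD values, these genes are uncertain singly. On chromosome 8, from 115701554 to 116794799, 4 genes were lower, namely Trank1, Dclk3, Stac and Arpp21. Over the 21 chromosomes the share at least 2-fold lower ran from 4.83% to 8.7%, beside 7.17% of all genes, and the share higher from 1.08% to 4.72%, beside 2.46%.

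The same comparison at 1 week, made in other rats of the same strains, gives another view of these genes. There 254 of 11837 genes (2.15%) were at least 2-fold higher and 1503 (12.7%) at least 2-fold lower in AN rats. Of the 857 genes lower at 8 weeks 767 had a ratio at 1 week. It was below 0 for 745 of these (97.1%) and at least 2-fold lower for 671 (87.5%), which are 45.5% of the 1475 genes lower at 1 week that had a ratio at 8 weeks. Of the 294 genes higher at 8 weeks 256 had a ratio at 1 week. It was above 0 for 200 of these (78.1%) and at least 2-fold higher for 87 (34%), which are 42.6% of the 204 genes higher at 1 week that had a ratio at 8 weeks. The shares of all genes below and above 0 at 1 week were not computed, so 97.1% and 78.1% stand without a share to compare. The difference between the time points was not tested, and the tables were normalized separately.

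**Figure D4:**
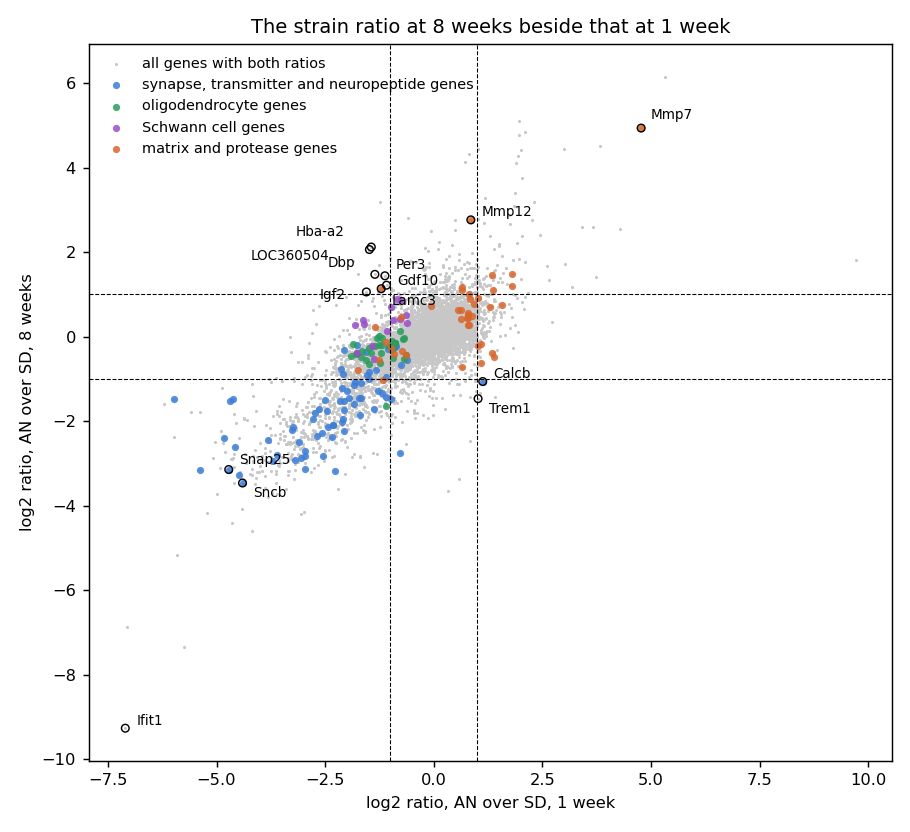
Log2 ratio of AN over SD FPKM at 8 weeks (vertical axis) against the same ratio at 1 week in other rats (horizontal axis), with 1 point for each gene that has both; colours mark gene groups, circles mark named genes and dashed lines mark 2-fold. Synapse, transmitter and neuropeptide genes lie mostly at the lower left, and Hba-a2, Dbp, Per3 and Igf2 lie at the upper left. Most coloured genes were named by the sheet, which was selected on the 1-week difference.

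The genes that the sheet names were selected on the 1-week difference, so their share past 2-fold and their group medians at 1 week are not given, and the values of single genes at 1 week are a description. The cholinergic genes were far apart between the times, with Slc18a3 at -4.70 at 1 week and -1.52 at 8 weeks and Slc5a7 at -4.62 and -1.48. So was Uts2 (urotensin 2), a peptide of motor neurons that was named after its values were seen, at -5.97 and -1.48. Gad1 showed the reverse order, at -0.76 at 1 week and -2.75 at 8 weeks.

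A set of 20 genes was past 2-fold on opposite sides at the 2 times, 16 of them lower in AN rats at 1 week and higher at 8 weeks. Beside the globin and clock genes these included Igf2, at -1.55 and 1.06, the bone morphogenetic factor Gdf10 at -1.09 and 1.22, the laminin chain Lamc3 at -1.21 and 1.13, and Mrap, an accessory protein of melanocortin receptors, at -1.62 and 1.01. Globin genes belong to the set by its rule, so their shift along with it is not a separate result. Hba-a2 had 595 FPKM in SD and 219.6 FPKM in AN rats at 1 week, against 215 and 934 FPKM at 8 weeks. The part of globin level in the other genes was not tested. The 4 genes that went from higher to lower were Trem1, the peptide gene Calcb, LOC290595 and the unnamed RGD:68358.

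A further 6 named genes with a mean FPKM of at least 1 were past 2-fold at 8 weeks and within 1.25-fold at 1 week. Higher in AN rats were Tm4sf19, with log2 ratios of 0.13 at 1 week and 2.24 at 8 weeks, Itgax at -0.07 and 1.24, and Stap1, a signalling adaptor of B cells and microglia, at 0.26 and 1.42. Lower were Shisa3, Lurap1l and Mis18a, at -1.28, -1.23 and -1.44 at 8 weeks. The sheet, whose genes were selected for a difference at 1 week, names none of the 6.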

How the data were processed

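RNA of the lesion segment was sequenced from 6 rats at 8 weeks, 3 of each strain, grouped by the strain and time point in the labels. Per the study's methods and the processing notes, adapters were removed with cutadapt, paired-end reads were mapped to RN4 with TopHat (version 1.5.0), transcripts were assembled with Cufflinks (version 0.0.6) under quartile normalization, and strains were compared with Cuffdiff. The authors deposited 1 FPKM per gene for each group of 3 rats, so the depth behind a value and the spread between rats are unknown. Further columns hold the authors' fold changes, test statistics and P values, and these were not used. The file lists 17423 genes by RGD identifier and RN4 locus, and starts are given here counted from 1.

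The ratio is log2 of AN over SD FPKM, with no pseudocount and no filter beyond status OK and an FPKM above 0 in both groups. A gene was counted as different past 2-fold. With 1 pooled value per group no test, interval or p-value was computed. Symbols came from RefSeq (GRCr8) synonyms that hold the RGD number, and from the identifier and symbol columns of the study's gene sheet, of which only a part was at hand. Of 340 identifiers named by both, 330 carry the same symbol. In all 1143 genes share a locus span with another listed gene. Gene lists were written by role from general knowledge, and the genes, lists and members were chosen with earlier results of these data known.

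Genes were named by a rule: with a mean FPKM of at least 2, the 15 highest and 15 lowest named genes and the 2 highest and 2 lowest without a symbol; in each list, with a mean FPKM of at least 1, the 4 highest and 4 lowest ratios, besides the 3 most abundant genes and every gene of lists of 12 or fewer, and the markers of the study's methods that could be named. Genes that form runs of neighbours, that lie on opposite sides at the 2 times, or that differ at 8 weeks alone were added after their values were seen. Some genes of the lists are not reported here by name. Promoters are the 250 bases before the RefSeq start. The computation of ratios was tested on simulated data. Python (3.11.15), pandas (2.3.3) and numpy (2.4.6) were used.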

Additional observations from a re-analysis of the deposited data

How the results depend on the processing

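Counts of genes past the threshold depend on the fold and on the filter on low values. At 1.5-fold 808 genes were higher and 1401 lower in AN rats, and at 3-fold 106 and 490. With a mean FPKM of at least 5 the counts were 129 and 266 of 9041 genes, with a pseudocount of 1 they were 162 and 455, and with rows of any status 565 and 1290 of 13791. The other settings, which were a mean FPKM of at least 1, a pseudocount of 0.1, centring on the median, scaling by the sum or the upper quartile and, added after the data were seen, leaving out genes that share a locus span, gave from 226 to 293 higher and from 619 to 921 lower. More genes were lower than higher under each of these. The median of the gene ratios shifted by at most 0.07 on the log2 scale under a scaling.

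Of 491 alternative values for 44 list medians 479 moved by under 1.5-fold. The median took the other sign in 11 of them, over 8 lists, of which muscle is given below and the others had medians between -0.14 and 0.03. The others were these. With a mean FPKM of at least 5 the median was -0.53 for glutamate receptors, -0.51 for GABA and glycine receptors, -0.63 for sodium, calcium and HCN channels and -0.28 for sensory neurons. With a pseudocount of 1 it was -0.76 for glutamate receptors, -0.71 for GABA and glycine receptors and -1.19 for transmitter synthesis. With a mean FPKM of at least 1 it was -1.27 for GABA and glycine receptors. For 4 genes of B and plasma cells the median of -0.66 became -1.81 with that filter and -1.56 with any status. Over the genes that RefSeq names, whether or not the sheet does too, it was -0.31 for interferon-stimulated and 0.15 for 4 muscle genes. With all symbols these were -0.96 and -0.89. Of 1880 alternative values of named genes 1811 moved by under 1.5-fold, and no gene past 2-fold took the other sign. With a pseudocount of 1, of the genes higher at 8 weeks 123 were on the same side at 1 week and 43 past 2-fold, and of those lower 448 and 368, out of 156 and 454. The filters leave fewer genes by construction, and the cause of the other shifts was not tested.

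Leaving out a rat was not possible with 1 pooled value per group. No paired analysis was possible because the groups hold different rats with no shared numbers and only pooled values. Depth limits weakly expressed genes most, but the reads behind them are not given.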

Other observations

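Of the genes with status OK 9 were listed at 0 in AN rats alone and 1 in SD rats alone, and no ratio was formed for them. The highest of these in SD rats were the unnamed RGD:2321299 at 5.83 FPKM and RT1-N1, an MHC class I gene, at 4.80 FPKM. The gene listed at 0 in SD rats, RGD:2321286 on chromosome 15, had 0.763 FPKM in AN rats. An FPKM of 0 in these tables can be a failed estimate. For 2 genes the status was HIDATA, which marks loci with too many fragments to be estimated. Of these RGD:2679 on chromosome 10 was listed at 0 in SD rats and at 5824 FPKM in AN rats, and RGD:2138 on chromosome 1 at 0 in both. A further 5459 genes had the status NOTEST. Of these 2855 were at 0 in both strains, and none exceeded 8.33 FPKM.

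Within the span of the run of 4 genes on chromosome 12 that were higher in AN rats lies a gene with the reverse pattern. RGD:1560262, between 20180880 and 20183996, had 0.971 FPKM in SD rats and was listed at 0 in AN rats. On chromosome 10 the unnamed RGD:1359209 starts at 15558815, and Hba-a2 at 15584360. Like Hba-a2 it was lower in AN rats at 1 week and higher at 8 weeks, with log2 ratios of -1.25 and 3.18. It had 1.77 FPKM in SD and 16.0 FPKM in AN rats at 8 weeks.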
